A study of Mus musculus with 8 samples.

Results

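The genes described here are 42 mitotic kinases, cyclins, spindle, kinetochore and cytokinesis genes, chosen by symbol from a table of 32098 mouse genes measured in 8 tumours. All 42 symbols were found in the table, each on 1 row. The tumours were grown from 4T1, a mouse mammary carcinoma cell line, and total RNA of each whole tumour was sequenced. Of these, 4 labelled RI had received radiation together with an immune checkpoint inhibitor (replicates 1, 2, 4 and 5). The other 4, labelled ICI, had received the inhibitor without radiation (replicates 1, 2, 3 and 4). The inhibitor was therefore common to all 8 tumours, and the labels give the genotype as WT throughout. Which inhibitor was given, at what radiation dose, whether a sampled tumour lay inside the irradiated field and how long after treatment it was taken are not in the labels. Nor do the labels tie each tumour to an animal of its own, so the p-values rest on sample-to-sample spread that may be partly technical. The series text gives 3 replicates a group, while 4 samples a group were listed and used.

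Progress through G2 and mitosis is driven by cyclin-dependent kinase 1 bound to A-type and B-type cyclins, with the Polo and Aurora kinases acting on centrosomes, kinetochores and the central spindle. The spindle assembly checkpoint delays anaphase until the kinetochores are attached, and the anaphase-promoting complex then marks cyclin B and securin for destruction. Most of these genes are transcribed late in the cell cycle, and their mRNAs are commonly used as a measure of proliferation in tumours. In mammals many of their promoters carry a cell cycle genes homology region (CHR), an element bound by the MuvB core of the DREAM complex, and CCAAT boxes, which bind NF-Y.

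Promoter windows from the RefSeq table of build GRCm38.p6, running from 250 bases before to 50 bases after the annotated start, were searched for these elements. Windows were found for 34 of the 42 genes. Those of Prc1 and Aurka, which rose in RI tumours, and of Cdk1 and Mki67, which did not pass the test, are shown so that the promoters of genes with and without a difference can be read side by side. Capitals mark matches to the CHR (TTTGAA or TTCGAA, or TTCAAA on the other strand) and to the CCAAT box (CCAAT, or ATTGG on the other strand). The windows lie at chr7:80294201-80294500 on the plus strand (Prc1), chr2:172370521-172370820 on the minus strand (Aurka), chr10:69352863-69353162 on the minus strand (Cdk1) and chr7:135716330-135716629 on the minus strand (Mki67), each 300 bases, written 5′ to 3′ in the direction of the gene.
Prc1: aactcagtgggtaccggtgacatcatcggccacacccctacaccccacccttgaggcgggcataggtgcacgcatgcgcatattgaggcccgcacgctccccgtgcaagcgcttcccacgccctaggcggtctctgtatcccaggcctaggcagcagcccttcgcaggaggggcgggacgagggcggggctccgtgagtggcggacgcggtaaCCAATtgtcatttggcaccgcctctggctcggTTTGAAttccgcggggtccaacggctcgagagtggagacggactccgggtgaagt
Aurka: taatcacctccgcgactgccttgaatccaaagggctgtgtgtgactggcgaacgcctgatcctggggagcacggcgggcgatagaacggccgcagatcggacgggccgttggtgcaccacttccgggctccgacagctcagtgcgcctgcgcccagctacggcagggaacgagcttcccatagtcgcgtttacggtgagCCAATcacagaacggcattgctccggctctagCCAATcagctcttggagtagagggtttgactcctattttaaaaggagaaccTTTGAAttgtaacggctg
Cdk1: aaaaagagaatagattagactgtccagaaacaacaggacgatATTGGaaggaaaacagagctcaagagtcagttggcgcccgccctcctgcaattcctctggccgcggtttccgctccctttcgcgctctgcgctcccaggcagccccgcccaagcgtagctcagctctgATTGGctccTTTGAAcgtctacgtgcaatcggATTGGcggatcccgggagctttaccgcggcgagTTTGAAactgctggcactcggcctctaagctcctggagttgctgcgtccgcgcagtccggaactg
Mki67: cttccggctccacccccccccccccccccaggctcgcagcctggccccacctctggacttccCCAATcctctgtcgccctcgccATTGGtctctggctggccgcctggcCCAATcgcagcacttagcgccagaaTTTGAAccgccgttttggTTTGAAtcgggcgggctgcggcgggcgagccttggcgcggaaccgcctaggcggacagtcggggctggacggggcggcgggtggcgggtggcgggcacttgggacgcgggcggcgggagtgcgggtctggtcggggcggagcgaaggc
The CHR match of Prc1 began at −5 relative to the start and that of Aurka at 32. Cdk1 had matches at −71 and −15, and Mki67 at −116 and −98. A CHR match was present in 27 of the 34 genes (79.4%), against 21.7% of the 27025 genes in the RefSeq table. CCAAT matches were present in 24 of 34 (70.6%), against 41.1% of all genes, and both elements in 22 of 34 (64.7%), against 8.61% of all genes. The CHR matches lay close to the start: 25 of 34 genes (73.5%) had one that began within 50 bases of it, against 6.12% of all genes. In no window did a CHR match overlap a CCAAT match. All 6 of the genes with a window that rose in RI tumours had a CHR match, as did 21 of the 28 that did not pass the test. Nuf2, Kif18a, Nusap1, Cenpe, Mad2l1, Birc5 and Ccnb1 had no CHR match in their windows. Incenp, Spc24, Aurkb, Ccna2, Tpx2, Cdc25c, Foxm1 and Kif20a were not searched. A match describes the sequence and does not show that a factor bound there.

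**Figure D1:**
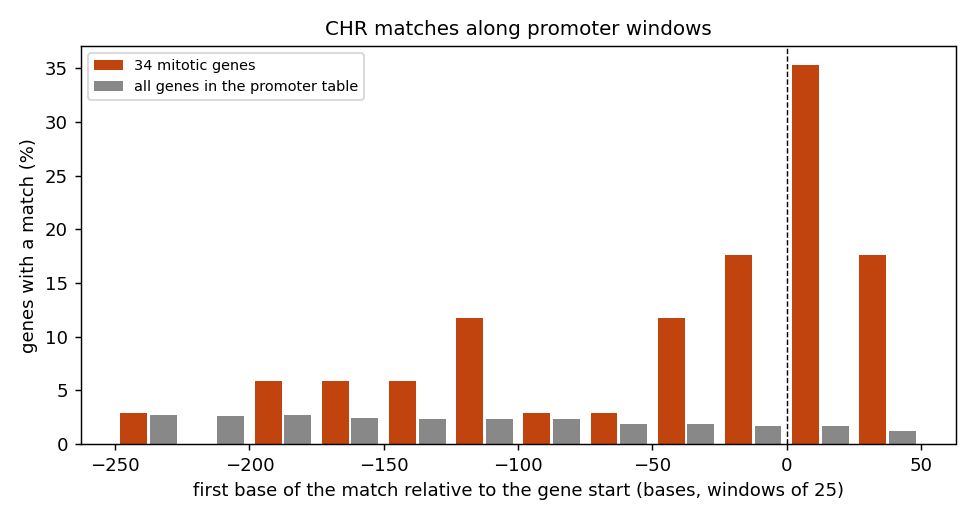
Share of genes with a CHR match (vertical axis, percent) by the position of its first base relative to the annotated start (horizontal axis, in bins of 25 bases), for the 34 mitotic genes with a window and for all genes in the RefSeq table. In the bin from 0 to 25 bases the share was 35.3% of the 34 genes and 1.68% of all genes.

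Values were deposited as FPKM, fragments scaled to the length of a gene's exons and to the mapped fragments of the library, which allows levels to be compared between genes. The values corresponded to about 27012600 to 42622700 fragments a tumour, and the 42 genes to 293 to 41837 fragments a gene in a tumour, so the spread between tumours rather than counting limited the precision. Mitochondrial genes made up 2.56 to 3.22% of recovered fragments in RI tumours and 4.37 to 8.14% in ICI tumours. In RI 4, 61.17% of the FPKM total lay in genes outside the annotation used to recover fragments, against 1.33 to 2.72% in the other 7 tumours. Summed neutrophil markers reached 108 to 282 FPKM in RI tumours and 258 to 21399 FPKM in ICI tumours, the highest value being that of ICI 1, and 2 of the 7 tested fell. Of the 7 fibroblast markers tested, of 8, 4 rose in RI tumours (summed FPKM 103 to 511 in RI, 48.7 to 68.0 in ICI), and of the 5 epithelial markers tested, of 11, 1 fell (768 to 1401 in RI, 981 to 2011 in ICI). Krt8, a keratin of the tumour cells, was at 412 to 792 FPKM in RI tumours and 468 to 1064 FPKM in ICI tumours, whereas Epcam ranged from 0 to 1.06 FPKM in RI tumours and from 0.0372 to 5.02 FPKM in ICI tumours. Esrp1 and Krt5 were also at 0 in some tumours. Summed markers of natural killer cells (23.7 to 36.4 FPKM in RI, 1.96 to 10.4 FPKM in ICI), B and plasma cells (6.38 to 32.3 in RI, 66.8 to 1469 in ICI) and erythroid cells (0.465 to 102.7 in RI, 209 to 1063 in ICI) did not overlap between the groups. Of these, the 1 natural killer marker tested rose, and 2 of 4 B and plasma cell markers and 2 of 4 erythroid markers tested fell. Those of macrophages (330.2 to 821 in RI, 342 to 435 in ICI), T cells (4.96 to 16.0 in RI, 9.01 to 22.3 in ICI), endothelium (14.96 to 39.2 in RI, 13.2 to 101.5 in ICI) and skeletal muscle (90.4 to 502 in RI, 1.34 to 199 in ICI) did overlap. Among them 2 of 7 macrophage and 2 of 5 skeletal muscle markers tested rose, 1 of 4 T cell markers tested fell, and none of 3 endothelial markers tested did either. Over all genes tested 11.1% rose and 6.6% fell. The part of cell composition in the differences below was not tested. In these bulk samples a larger share of cycling cells and more RNA per cycling cell cannot be told apart.

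Most of the mitotic genes, 35 of 42, had a higher mean level in RI tumours, and 8 passed the adjusted threshold. In limma on log2(FPKM + 1), with Benjamini-Hochberg adjustment over the 13439 genes tested, 8 of the 42 rose in RI tumours (19.0%), against 11.1% of all genes tested. None of the 42 fell, against 6.6% of all genes tested, and 34 did not pass the test. The genes that rose were Kif20a, Prc1, Kif11, Anln, Ect2, Bub1b, Ccna2 and Aurka, a set that spans mitotic entry, the checkpoint, the spindle and the contractile ring. Without adjustment, 17 had a limma p under 0.05 with a higher level in RI tumours, against 20.4% of all genes, and none had one with a lower level. The median log2 difference of the 42 was 0.39, with a range of −0.28 to 1.35, while the median over all genes tested was 0.01 and 51.1% of them were higher in RI tumours. Every RI value lay above every ICI value for 16 of the 42, against 16.7% of all genes, and every RI value below every ICI value for none, against 11.2% of all genes. Of the 16 genes, 8 did not pass the test, namely Top2a, Ccnb1, Ttk, Bub1, Kif2c, Kif15, Tpx2 and Foxm1. No test was made of the 42 genes as a set. Within each role 0 to 2 genes rose, and with so few genes a role these counts do not set any role apart from the 11.1% of all genes.

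**Figure D2:**
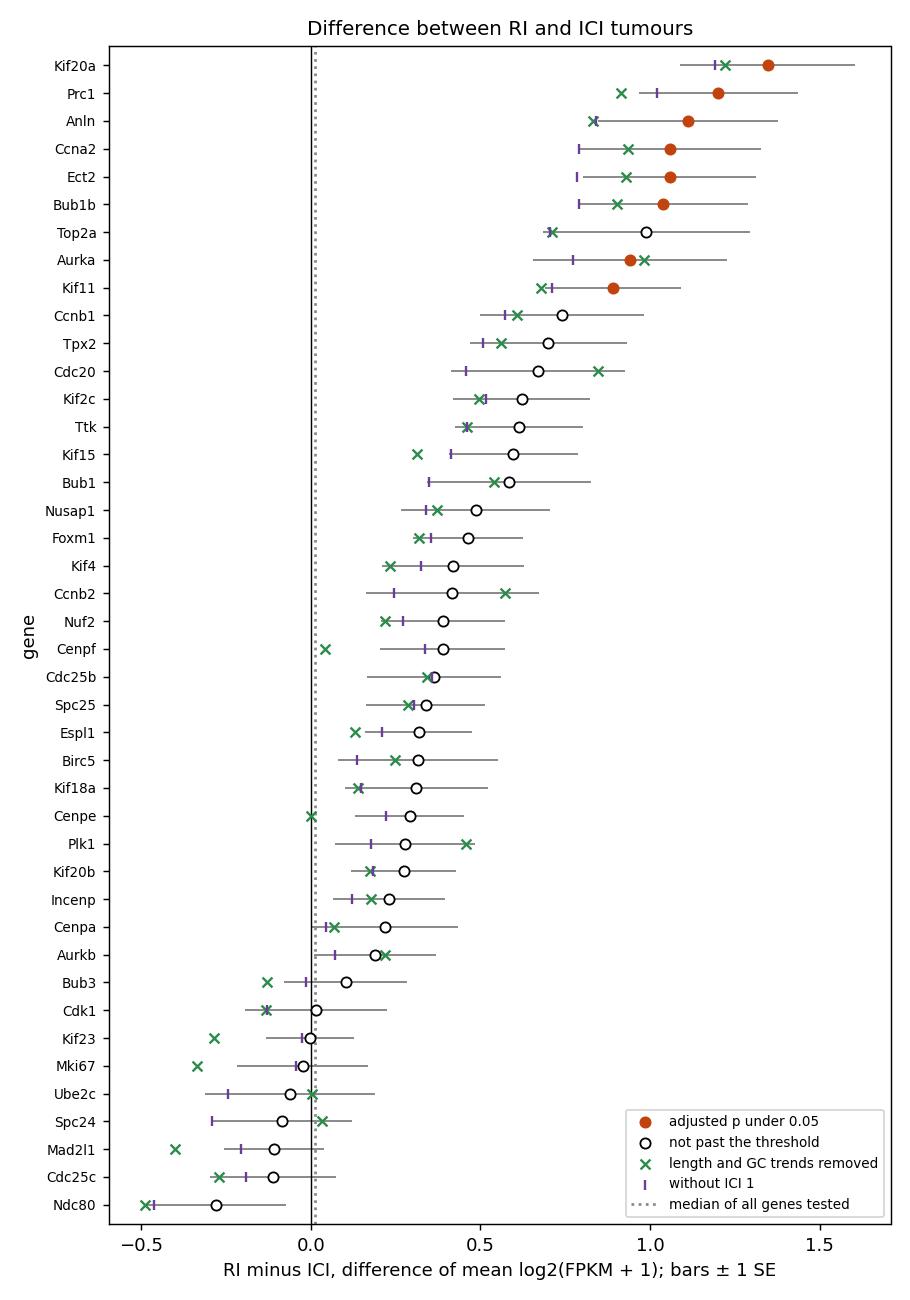
Log2 difference of FPKM + 1 (RI minus ICI, horizontal axis) for each of the 42 genes, in order of the difference, with bars of 1 standard error from the limma fit (filled circles rose, open circles did not pass). Crosses show the difference with length and GC trends removed, ticks that without ICI 1, and the dotted line the median of all genes. Genes that rose stand at the right with Kif20a at 1.35 and Prc1 at 1.20, and Mki67, Cdk1 and Kif23 lie near 0.

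Neither of the 2 proliferation markers of the set passed the test. Mki67, which encodes the chromosome-coating antigen Ki-67, had 41.6, 47.2, 51.9 and 37.4 FPKM in RI 1, 2, 4 and 5, against 43.1, 53.5, 53.7 and 32.9 FPKM in ICI 1, 2, 3 and 4; values are given in this tumour order throughout. The groups overlapped, and the log2 difference was −0.02 (SE 0.19, limma adjusted p = 0.944). Top2a, the topoisomerase that decatenates sister chromosomes, had 113, 111, 115 and 109 FPKM in RI tumours, against 30.5, 81.2, 85.4 and 45.8 FPKM in ICI tumours. The RI tumours were tightly grouped and all above the ICI tumours, of which ICI 1 was the lowest, with a log2 difference of 0.99 (SE 0.31) and a limma adjusted p of 0.0516, which missed the threshold of 0.05. Top2a was also the most abundant of the 42 transcripts, at 86.3 FPKM over the 8 tumours, and Kif18a the least, at 2.05 FPKM.

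Among cyclins, their kinase and the Cdc25 phosphatases, cyclin A2 rose and the kinase transcript itself showed no difference beyond the spread. Ccna2 had 45.4, 48.2, 45.1 and 58.2 FPKM in RI tumours, against 12.7, 29.8, 32.3 and 22.4 FPKM in ICI tumours. All RI values were above all ICI values, with means of 49.2 ± 6.13 FPKM in RI and 24.3 ± 8.80 FPKM in ICI (SD, n = 4 each), a 2.02-fold ratio and a log2 difference of 1.06 (limma adjusted p = 0.0287). Cyclin B1 (Ccnb1) had 23.6, 27.7, 24.0 and 41.5 FPKM in RI tumours, against 11.4, 21.0, 21.0 and 15.03 FPKM in ICI tumours. Its groups did not overlap, yet the log2 difference of 0.74 did not pass the test (limma adjusted p = 0.0613). Ccnb2, the second B-type cyclin, averaged 77.3 ± 25.9 FPKM in RI and 56.8 ± 13.0 FPKM in ICI (log2 difference 0.42). Cdk1, the kinase both cyclins activate, had 30.9, 31.4, 23.8 and 40.3 FPKM in RI tumours, against 22.5, 38.6, 33.8 and 30.3 FPKM in ICI tumours. The groups overlapped almost fully, at a log2 difference of 0.02 (SE 0.21, limma adjusted p = 0.968). Of the phosphatases that activate Cdk1, Cdc25b averaged 25.9 ± 7.65 FPKM in RI and 19.4 ± 2.01 FPKM in ICI, and Cdc25c 6.01 ± 1.77 FPKM in RI and 6.44 ± 0.916 FPKM in ICI, neither passing the test.

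Of the mitotic kinases, Aurora A alone passed the test, and it did so narrowly. Aurka, which acts at centrosomes and spindle poles, had 19.3, 20.3, 16.8 and 39.9 FPKM in RI tumours, against 7.68, 14.1, 14.3 and 10.5 FPKM in ICI tumours. The groups did not overlap, but RI 5 stood well above the other RI tumours, and the group values were 24.1 ± 10.7 FPKM in RI and 11.7 ± 3.17 FPKM in ICI (mean ± SD, n = 4 each; log2 difference 0.94, SE 0.28, limma adjusted p = 0.0492). Its paralogue Aurkb, the kinase of the chromosomal passenger complex, had 29.5, 26.7, 26.4 and 34.9 FPKM in RI tumours, against 19.7, 31.97, 28.8 and 23.2 FPKM in ICI tumours. Here the groups overlapped (log2 difference 0.19, limma adjusted p = 0.473). Plk1, the Polo-like kinase of mitotic entry and spindle assembly, had 39.7, 41.6, 32.3 and 52.3 FPKM in RI tumours, against 27.0, 39.8, 41.9 and 28.1 FPKM in ICI tumours. RI 1, RI 2 and RI 4 lay within the ICI range, and the log2 difference was 0.28 (limma adjusted p = 0.356). The checkpoint kinases Ttk (Mps1) and Bub1 were separated between the groups without passing the test. Ttk averaged 9.64 ± 1.39 FPKM in RI and 6.06 ± 1.68 FPKM in ICI (limma adjusted p = 0.0518). Bub1 had 14.6, 16.4, 15.8 and 15.1 FPKM in RI tumours, against 5.69, 13.3, 14.1 and 9.02 FPKM in ICI tumours, with ICI 3 close under the lowest RI value (log2 difference 0.59, limma adjusted p = 0.115).

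**Figure D3:**
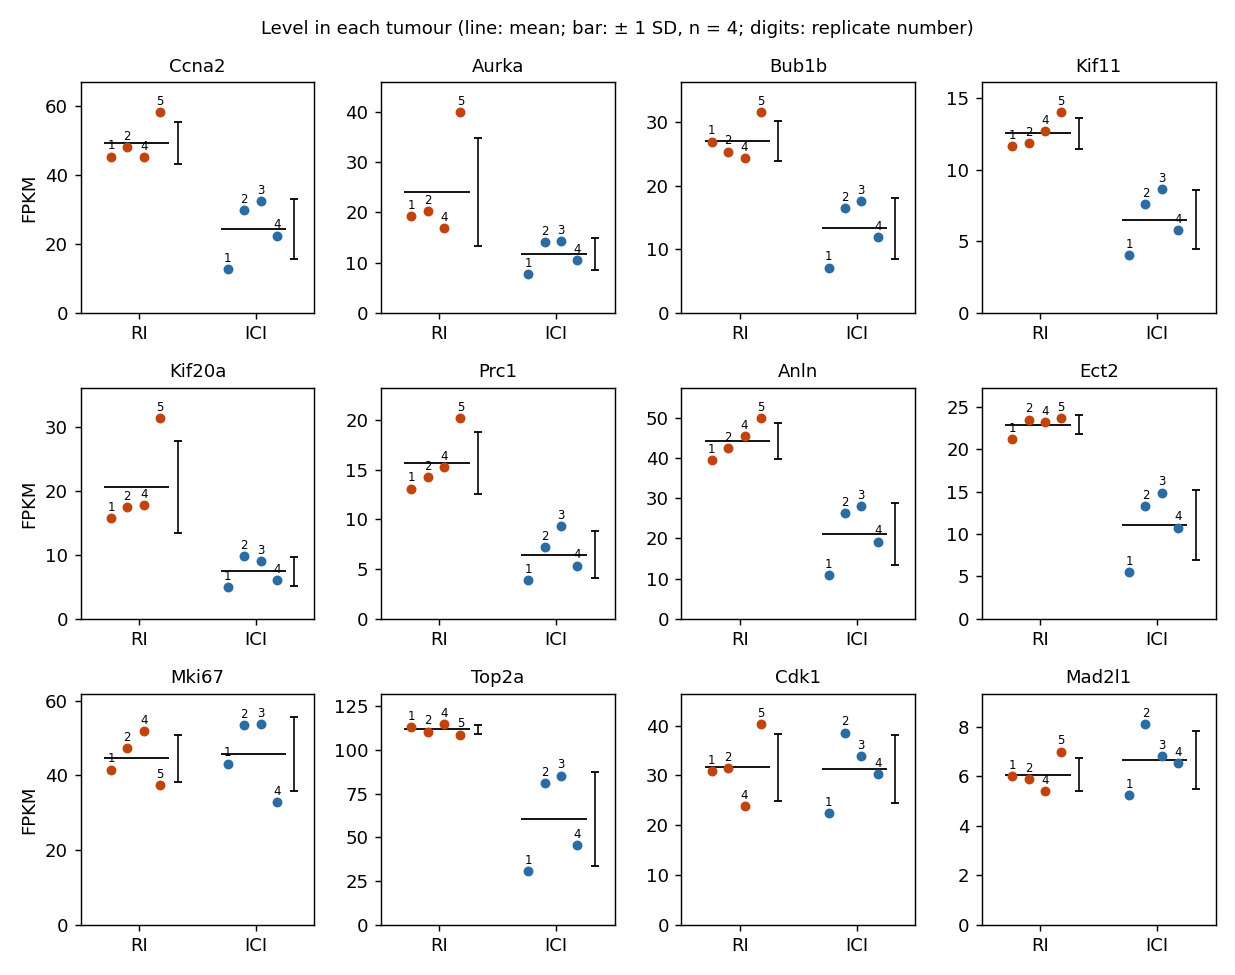
FPKM in each tumour (points, one per tumour) with group means (lines) and SD (bars, n = 4) for 12 of the 42 genes, RI on the left and ICI on the right of each panel. The 4 RI points lie above all ICI points for the 8 genes that rose and for Top2a, and overlap them for Mki67, Cdk1 and Mad2l1.

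In the spindle checkpoint and the anaphase machinery 1 of 6 genes rose. Bub1b (BubR1), the inhibitory subunit of the mitotic checkpoint complex, had 26.9, 25.4, 24.3 and 31.5 FPKM in RI tumours, against 7.11, 16.4, 17.6 and 12.0 FPKM in ICI tumours. The lowest RI tumour was above the highest ICI tumour, the means were 27.0 ± 3.19 FPKM in RI and 13.3 ± 4.77 FPKM in ICI, and the log2 difference was 1.04 (SE 0.25, limma adjusted p = 0.0258). Its partner Bub3 had 17.8, 16.6, 13.6 and 21.8 FPKM in RI tumours, against 12.3, 19.3, 16.8 and 16.3 FPKM in ICI tumours. The groups overlapped (log2 difference 0.10, limma adjusted p = 0.712). Mad2l1 (MAD2), the conformational switch of the same complex, averaged 6.07 ± 0.671 FPKM in RI and 6.67 ± 1.18 FPKM in ICI (log2 difference −0.11). Cdc20, the co-activator that this complex restrains, had 70.5, 83.1, 65.1 and 107 FPKM in RI tumours, against 31.8, 58.9, 68.2 and 48.3 FPKM in ICI tumours. RI 4 lay below ICI 3, and the log2 difference of 0.67 did not pass the test (limma adjusted p = 0.0937). The ubiquitin-conjugating enzyme Ube2c averaged 50.5 ± 14.1 FPKM in RI and 52.9 ± 14.2 FPKM in ICI, and separase (Espl1), which cleaves cohesin, 8.57 ± 0.634 FPKM in RI and 6.77 ± 1.47 FPKM in ICI.

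The 9 centromere, kinetochore and passenger complex genes held no gene that rose or fell, where 11.1% of all genes tested rose, so the absence of a call among so few genes does not set them apart. Their log2 differences ran from −0.28 to 0.39 with a median of 0.29. Survivin (Birc5), a passenger subunit, had 29.6, 25.05, 20.7 and 36.9 FPKM in RI tumours, against 14.7, 26.0, 28.1 and 21.0 FPKM in ICI tumours. The groups overlapped (limma adjusted p = 0.362). The scaffold subunit Incenp averaged 25.9 ± 3.41 FPKM in RI and 22.1 ± 3.92 FPKM in ICI. Cenpa, the centromeric histone H3 variant, had 23.4, 24.0, 17.4 and 29.1 FPKM in RI tumours, against 13.4, 23.5, 23.2 and 20.5 FPKM in ICI tumours, again with overlap (log2 difference 0.22). Cenpe, a kinetochore motor, averaged 16.7 ± 1.19 FPKM in RI and 13.6 ± 2.89 FPKM in ICI. Cenpf, a large kinetochore protein, averaged 13.2 ± 1.43 FPKM in RI and 10.03 ± 2.73 FPKM in ICI. None of the 4 subunits of the Ndc80 complex, which holds microtubule ends, passed the test, and their groups overlapped. Ndc80 had 6.06, 5.88, 5.57 and 7.73 FPKM in RI tumours, against 5.04, 10.9, 8.77 and 7.63 FPKM in ICI tumours, the lowest difference of the 42 genes at −0.28 (SE 0.21, limma adjusted p = 0.356). Nuf2, with which Ndc80 dimerises, had 7.46, 7.66, 6.80 and 8.74 FPKM in RI tumours, against 4.14, 7.54, 6.67 and 4.60 FPKM in ICI tumours. Its log2 difference was 0.39 (limma adjusted p = 0.156). Of the inner dimer, Spc24 averaged 24.2 ± 2.90 FPKM in RI and 26.3 ± 6.65 FPKM in ICI, and Spc25 7.13 ± 1.60 FPKM in RI and 5.39 ± 1.00 FPKM in ICI.

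Of the 8 kinesins, 2 rose and the median log2 difference was 0.51. Kif20a (MKLP2), which carries the passenger complex to the central spindle, had 15.8, 17.5, 17.8 and 31.4 FPKM in RI tumours, against 4.94, 9.76, 8.96 and 6.08 FPKM in ICI tumours. All RI values were above all ICI values, RI 5 the highest, with means of 20.6 ± 7.23 FPKM in RI and 7.44 ± 2.30 FPKM in ICI, a 2.77-fold ratio and the largest log2 difference of the 42 genes, 1.35 (SE 0.26, limma adjusted p = 0.0153). Kif11 (Eg5), the motor that slides antiparallel microtubules to separate spindle poles, had 11.6, 11.8, 12.7 and 14.0 FPKM in RI tumours, against 4.01, 7.58, 8.67 and 5.77 FPKM in ICI tumours. These groups did not overlap either, and the log2 difference was 0.89 (SE 0.20, limma adjusted p = 0.0221). Kif2c (MCAK), a microtubule depolymerase, averaged 14.6 ± 3.97 FPKM in RI and 9.04 ± 1.88 FPKM in ICI, and Kif15, a motor that works beside Kif11, 8.88 ± 0.704 FPKM in RI and 5.68 ± 1.62 FPKM in ICI. Both were separated between the groups and missed the threshold (limma adjusted p = 0.0599 for Kif2c and 0.0569 for Kif15). The chromokinesin Kif4 averaged 8.16 ± 2.30 FPKM in RI and 5.81 ± 1.48 FPKM in ICI. Kif18a, which dampens chromosome oscillation, averaged 2.36 ± 0.611 FPKM in RI and 1.73 ± 0.612 FPKM in ICI. Kif20b, a motor of cytokinesis, averaged 7.88 ± 0.556 FPKM in RI and 6.43 ± 1.39 FPKM in ICI. Kif23 (MKLP1), the motor subunit of centralspindlin, averaged 10.3 ± 1.35 FPKM in RI and 10.3 ± 0.635 FPKM in ICI, a log2 difference of −0.0031.

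Of the roles, the 3 spindle and midzone proteins (Prc1, Tpx2 and Nusap1) and the 2 cytokinesis genes (Anln and Ect2) had the highest median log2 differences, 0.70 and 1.08. Motors of the central spindle and of cytokinesis were counted with the kinesins. Their log2 differences were 1.35 for Kif20a, 0.27 for Kif20b and −0.0031 for Kif23. With so few genes a role, these medians do not set midzone and cytokinesis genes apart. Prc1, which crosslinks antiparallel microtubules of the midzone, had 13.1, 14.3, 15.3 and 20.2 FPKM in RI tumours, against 3.92, 7.20, 9.36 and 5.35 FPKM in ICI tumours. The groups did not overlap, the means being 15.7 ± 3.12 FPKM in RI and 6.46 ± 2.36 FPKM in ICI (ratio 2.43, log2 difference 1.20, SE 0.23, limma adjusted p = 0.0157). Tpx2, which activates Aurora A and nucleates spindle microtubules, averaged 27.8 ± 6.68 FPKM in RI and 16.9 ± 4.57 FPKM in ICI and was separated without passing the test (limma adjusted p = 0.0634). Nusap1, a microtubule stabiliser, averaged 15.6 ± 3.31 FPKM in RI and 10.97 ± 3.15 FPKM in ICI, with overlap. Anillin (Anln), a scaffold of the contractile ring, had 39.5, 42.5, 45.4 and 49.9 FPKM in RI tumours, against 10.9, 26.2, 28.0 and 19.2 FPKM in ICI tumours. Ect2, the RhoA exchange factor that positions that ring, had 21.2, 23.5, 23.2 and 23.7 FPKM in RI tumours, against 5.48, 13.3, 14.9 and 10.8 FPKM in ICI tumours. In both genes every RI tumour was above every ICI tumour, with log2 differences of 1.11 for Anln (SE 0.26, limma adjusted p = 0.0254) and 1.06 for Ect2 (SE 0.25, limma adjusted p = 0.0255). Foxm1, a transcription factor of late cell cycle genes, had 27.9, 27.0, 24.5 and 28.8 FPKM in RI tumours, against 15.2, 22.6, 23.2 and 17.4 FPKM in ICI tumours. Its groups were separated, ICI 3 lying closest to RI 4, and the log2 difference of 0.46 missed the threshold (limma adjusted p = 0.0740).

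The position of 7 of the genes that rose is chromosome 7, 80294450 to 80316259 (Prc1), chromosome 19, 37376403 to 37421859 (Kif11), chromosome 9, 22332012 to 22389188 (Anln), chromosome 3, 27097222 to 27153878 (Ect2), chromosome 2, 118598211 to 118641591 (Bub1b), chromosome 3, 36564865 to 36572150 (Ccna2) and chromosome 2, 172356190 to 172370535 (Aurka), in GRCm38 coordinates of GENCODE M21. Of the genes that rose, Kif20a, Prc1 and Ccna2 share exon sequence with a neighbour on the opposite strand, and the sources used here do not say whether fragments were assigned by strand. Kif20a shares 1271 bases with Cdc23, an anaphase-promoting complex subunit, which averaged 4.67 ± 0.509 FPKM in RI and 3.93 ± 0.423 FPKM in ICI. Prc1 shares 911 bases with Rccd1, at 1.08 ± 0.327 FPKM in RI and 1.44 ± 0.363 FPKM in ICI. Ccna2 shares 510 bases with Exosc9, a subunit of the RNA exosome, at 6.46 ± 0.984 FPKM in RI and 5.69 ± 1.41 FPKM in ICI. In both groups the neighbour's mean FPKM was below that of the gene that rose. In recovered fragments, however, the lowest tumour had 706 for Kif20a and 1140 for Cdc23. The part of the neighbours' fragments in these differences was not tested. Ccnb1, Ccnb2 and Kif4 have annotated pseudogene copies, between which the counting could divide fragments.

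Ratios of 2 transcripts within the same tumour were calculated for 16 pairs of mitotic genes, not all of them partners in a complex. The pairs were picked after their values had been seen, and most set a gene that rose over one that did not. Separation was thus partly fixed by the choice of pairs. The ratios are a description and no test was made. All RI ratios lay above all ICI ratios in 14 of the 16 pairs. The share of other gene pairs that would be separated in this way was not computed. The 2 pairs that overlapped were Spc25 over Spc24 (0.252 to 0.360 in RI, 0.158 to 0.2997 in ICI) and Ccnb1 over Ccna2 (0.520 to 0.714 in RI, 0.650 to 0.899 in ICI). Top2a over Mki67 was 2.73, 2.34, 2.21 and 2.91 in RI tumours, against 0.707, 1.52, 1.59 and 1.39 in ICI tumours. For Bub1b over Mad2l1 the ratio was 4.49, 4.31, 4.50 and 4.51 in RI tumours, against 1.36, 2.03, 2.58 and 1.84 in ICI tumours. Neither pair overlapped between the groups, and the RI ratios of Bub1b over Mad2l1 were nearly equal to one another. Cyclin A2 over its kinase (Ccna2 over Cdk1) was 1.47, 1.53, 1.89 and 1.44 in RI tumours, against 0.565, 0.773, 0.956 and 0.739 in ICI tumours. The exchange factor over its centralspindlin partner (Ect2 over Kif23) was 2.22, 2.13, 2.64 and 2.01 in RI tumours, against 0.563, 1.22, 1.38 and 1.11 in ICI tumours. Nuf2 over Ndc80 was 1.23, 1.302, 1.22 and 1.13 in RI tumours, against 0.821, 0.695, 0.761 and 0.602 in ICI tumours. These 3 ratios were likewise separated between the groups. Aurka over Aurkb was 0.654, 0.758, 0.637 and 1.14 in RI tumours, against 0.390, 0.443, 0.496 and 0.454 in ICI tumours, with RI 5 the highest.

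**Figure D4:**
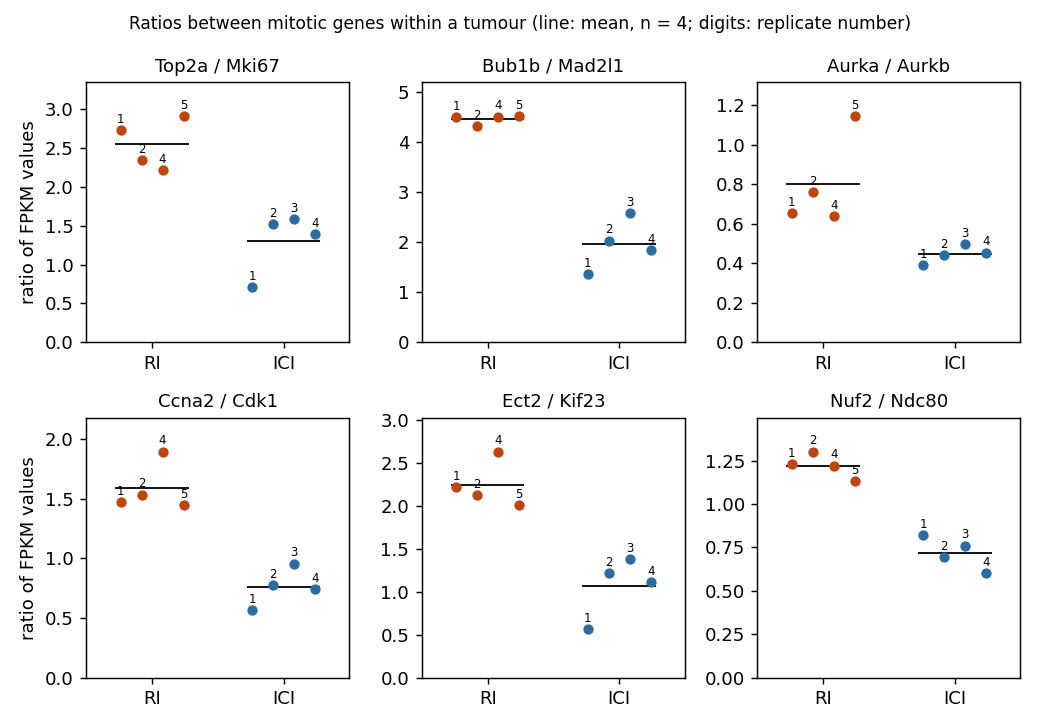
Ratio of FPKM of 2 mitotic genes within each tumour (points, one per tumour; vertical axis, no unit) for 6 of the 14 separated pairs among 16 examined, RI on the left and ICI on the right of each panel. The pairs shown were chosen for this separation, for example 2.21 to 2.91 in RI and 0.707 to 1.59 in ICI for Top2a over Mki67.

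The tumours of each group were not alike in these genes. ICI 1 had the lowest ICI level for 36 of the 42 genes, while 43.1% of all genes tested were lowest there. The other 6 (Mki67, Cdc25b, Cenpe, Cenpf, Spc25 and Kif23) were lowest in ICI 4. RI 5 had the highest RI level for 36 of the 42 genes, against 37.5% of all genes tested. The exceptions were Mki67, Top2a and Cenpe, highest in RI 4, Bub1 and Kif20b, highest in RI 2, and Spc24, highest in RI 1. With each gene centred on its average over 8 tumours, the median of the 42 genes on the log2 scale stood at 0.13, 0.17, 0.08 and 0.49 in RI 1, 2, 4 and 5, and at −0.60, 0.05, 0.06 and −0.37 in ICI 1, 2, 3 and 4. The same median over all genes tested was 0.09, 0.08, −0.21 and 0.09 in RI tumours, and −0.07, −0.0012, 0.02 and −0.06 in ICI tumours. On the medians of the 42 genes alone, ICI 2 and ICI 3 were close to RI 1, 2 and 4. Set beside the medians over all genes, RI 1 and RI 2 remained close to ICI 2 and ICI 3. RI 4 was low over all genes, so its mitotic genes stood further above its other genes than those of ICI 2 and ICI 3 did. ICI 1 was also the tumour with 21399 FPKM of summed neutrophil markers, whose part in its low values was not tested. Without ICI 1 the median log2 difference of the 42 genes was 0.32, and 9 rose, against 11.7% of all genes tested. They were 7 of the 8 named above, with Top2a (limma adjusted p = 0.0450) and Kif15 (0.0492), while Aurka missed the threshold (0.0786).

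**Figure D5:**
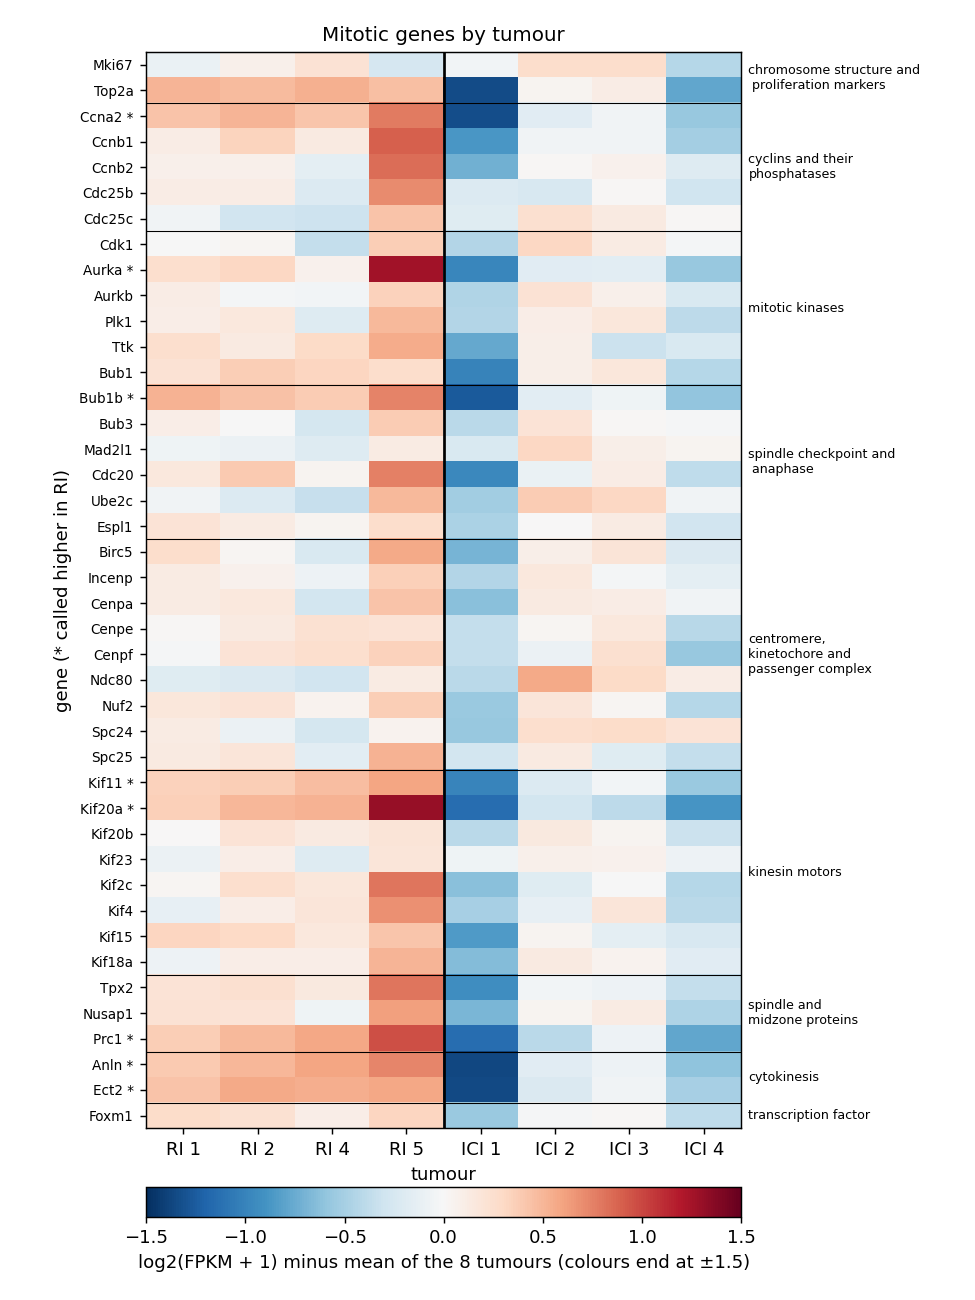
Heat map of the 42 genes (rows, grouped by role) in the 8 tumours (columns, RI left and ICI right), coloured by log2(FPKM + 1) minus the gene's mean over the tumours. ICI 1 and ICI 4 are low and RI 5 is high for most of the genes, and ICI 2 and ICI 3 resemble RI tumours for many.

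The annotated exons of these genes, merged over isoforms, covered more bases than those of most genes. The median exon length was 4927 bases, against 3768 bases for all genes tested. When trends with exon length and GC content were removed in each tumour, 9 rose, against 10.8% of all genes tested, and 1 fell, against 9.49%. The 9 were the 8 named above and Cdc20 (log2 difference 0.85, limma adjusted p = 0.0329), and the gene that fell was Mad2l1 (−0.40, limma adjusted p = 0.0384). On fragments recovered from the FPKM, limma voom called 14 of the 42 as higher, against 12.3% of all genes tested, the 8 among them. Of the 8 fits that left out 1 tumour, Kif20a and Prc1 passed the test in 7, Kif11 in 5 and Bub1b in 4. Anln, Ect2 and Ccna2 passed in 3 each, and Aurka in none. Without ICI 4, none of the 42 passed, against 1.81% of all genes that rose. Without RI 1 there were 3 that rose (4.15% of all genes), without RI 2 there were 2 (3.04%), without RI 4 there were 4 (8.85%) and without RI 5 there were 2 (4.77%). As TPM, 2 of the 42 rose (Kif20a and Prc1), against 1.43% of all genes, and with no filter on low values none did, against 0.592%. The calls of the whole table thus became fewer in the same fits. TPM divides each value by the FPKM total of its tumour. That total was 717092 in RI 4 and 358243 to 494399 in the other tumours. The part of the RI 4 total in the fewer calls as TPM was not tested. Over the alternatives run, the median log2 difference of the 42 ranged from 0.23 with array weights to 0.51 as TPM, and the 8 genes that rose were higher in RI tumours in each. The small differences of Mki67, Cdk1, Bub3, Ube2c, Spc24 and Kif23 changed sign with the scaling or with a tumour left out.

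The other mitotic genes were put in 6 lists chosen for their function, with earlier results of these data known. Of the 118 tested, 22 rose (18.6%) and 1 fell, against 11.1% and 6.6% of all genes. The condensin and cohesin list held 7 of 21 that rose and none that fell, with a median log2 difference of 0.43. Wapl, which releases cohesin from chromosomes, averaged 20.5 ± 1.12 FPKM in RI and 12.6 ± 2.19 FPKM in ICI (limma adjusted p = 0.0196). Its partners Pds5b and Pds5a rose with log2 differences of 0.85 (limma adjusted p = 0.0256) and 0.56 (0.0282), and the condensin subunit Ncapd2 with one of 0.64 (0.0278). Among 24 centrosome and spindle pole genes 5 rose and none fell. Numa1, which anchors dynein at spindle poles, averaged 37.2 ± 3.02 FPKM in RI and 20.7 ± 3.74 FPKM in ICI (limma adjusted p = 0.0152), and the centrosome kinase Nek2 19.1 ± 5.33 FPKM in RI and 9.12 ± 2.68 FPKM in ICI (0.0263). The microtubule polymerase Ckap5 and the pole protein Aspm rose by 0.80 (limma adjusted p = 0.0209) and 0.65 (0.0321) on the log2 scale.

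The counts of the lists that follow stand against 11.1% of all genes tested that rose and 6.6% that fell. Of 32 further centromere and kinetochore genes, 4 rose and none fell, near the share that rose, with a median log2 difference of 0.15. In the parentheses that follow, a log2 difference comes before its limma adjusted p. The 4 were Knl1, the scaffold on which Bub1 and Bub1b dock (6.26 ± 0.266 FPKM in RI, 3.13 ± 0.962 FPKM in ICI, limma adjusted p = 0.0171), Mis12, which joins the kinetochore to the centromere (0.63, 0.0263), the checkpoint protein Zw10 (0.48, 0.0371) and Oip5, which helps load Cenpa (0.80, 0.0438). Of 11 further motors and cytokinesis genes 3 rose, namely Kif14 (4.53 ± 0.246 FPKM in RI, 2.14 ± 0.570 FPKM in ICI, limma adjusted p = 0.0152), the plus-end motor Kif18b (0.86, 0.0361) and the spindle protein Fam83d (0.66, 0.0403), while Ckap2l missed the threshold (0.79, 0.0519). Among 13 other entry regulators the kinase Melk averaged 16.2 ± 1.98 FPKM in RI and 7.54 ± 2.37 FPKM in ICI (limma adjusted p = 0.0169) and Gtse1 rose by 0.71 on the log2 scale (0.0344). The kinases Pbk (0.60, 0.0734) and Mastl (Greatwall; 0.58, 0.119) did not pass. The anaphase-promoting complex, which the checkpoint restrains, held 1 of 17 that rose and 1 that fell, with a median of 0.07. These counts do not set it apart from all genes tested. Its largest subunit Anapc1 averaged 11.3 ± 1.13 FPKM in RI and 6.45 ± 1.19 FPKM in ICI (limma adjusted p = 0.0171), and its small subunit Anapc13 3.64 ± 1.23 FPKM in RI and 8.05 ± 0.899 FPKM in ICI (0.0162), the one that fell. The scaffold subunit Cdc27 (0.44, 0.0861) and the late activator Fzr1 (0.47, 0.0665) did not pass.

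Genes of the earlier cell cycle were measured for comparison. Of 13 G1 and S phase cyclins, kinases and E2F factors 4 rose and none fell, where 11.1% of all genes tested rose and 6.6% fell. Cyclin D2 (Ccnd2) had 10.8, 9.68, 9.23 and 9.96 FPKM in RI tumours, against 2.60, 5.11, 4.64 and 2.82 FPKM in ICI tumours (log2 difference 1.23, limma adjusted p = 0.0126). Cyclin D1 (Ccnd1) averaged 193 ± 13.7 FPKM in RI and 92.8 ± 40.3 FPKM in ICI (limma adjusted p = 0.0315), Cdk6, a kinase they activate, 14.3 ± 1.52 FPKM in RI and 8.12 ± 1.40 FPKM in ICI (0.0166), and cyclin E2 (Ccne2) 4.71 ± 0.599 FPKM in RI and 2.66 ± 0.232 FPKM in ICI (0.0170). Of 32 DNA replication genes 10 rose and none fell, read against the same shares, with a median log2 difference of 0.44 beside 0.01 over all genes. Among them Mcm6 and Mcm4, subunits of the replicative helicase, rose by 1.15 (limma adjusted p = 0.0232) and 0.92 (0.0219) on the log2 scale, the clamp loader subunit Rfc1 by 0.82 (0.0216) and the helicase loader Cdc6 by 0.67 (0.0284).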

How the data were processed

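Total RNA of 8 4T1 tumours was sequenced, 4 RI and 4 ICI. The authors deposited 1 table of FPKM values per gene. Alignment used HISAT2 and the builds named are GRCm38 and mm10, per the submitters' processing notes, while quantification tool, annotation and strand setting were not given in the sources used here. All 8 columns were matched to the labels by name. Fragments were recovered from FPKM and GENCODE M21 exon lengths (31407 of 32098 rows matched, 98.62 to 98.81% of values under 50 fragments whole within 0.05). No 2 libraries of a group agreed within sampling noise (lowest chi-square per gene 32.8).

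The 13439 genes that reached 1 FPKM in 4 or more tumours were tested with limma 3.58.1 (R 4.3.3, trended and robust eBayes) on log2(FPKM + 1), RI minus ICI, two-sided, with Benjamini-Hochberg adjustment and a threshold of 0.05. Fold changes on this scale understate changes of low genes. The procedure was tested on simulated data. Genes below the filter were tested by an exact permutation test. Alternatives were other filters, pseudocounts, scalings, removal of length and GC trends (lowess span 0.3), array weights, voom, a replicate block and leaving out tumours.

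The 42 genes, the lists and the roles were chosen with earlier results of these data known. Values of every tumour are given for 15 genes fixed by name, for the gene with the smallest p in each role and for each gene that rose. Of every other list up to 4 genes with the smallest p are named, and all CDK inhibitors.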

Additional observations from a re-analysis of the deposited data

Results flagged for a closer look

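In groups of 4 tumours, a tumour was singled out where its gap to the nearest other tumour was an unusually large part of the group's range (Dixon's 95% criterion). The criterion was applied to 166 groups of 4 values and singled out 12, where chance gives about 1 in 20 groups. RI 5 was the tumour in 9 of the 12. Of the 42 genes, Aurka was at 39.93 FPKM in RI 5, next to 20.27 FPKM in the nearest RI tumour, Kif20a was at 31.37 FPKM in RI 5, next to 17.83 FPKM, and Tpx2 was at 37.72 FPKM in RI 5, next to 25.25 FPKM. Spc24 was low in ICI 1, at 16.36 FPKM, next to 28.83 FPKM in the nearest ICI tumour. Among the other cell cycle genes named, RI 5 stood apart for Wapl (22.14 FPKM), Kif18b (20.68 FPKM), Ckap2l (34.37 FPKM), Fam83d (12.59 FPKM), Mastl (11 FPKM) and Mybl2 (22.83 FPKM). Kif14 was low in RI 1 at 4.164 FPKM, and Cdkn2d was high in ICI 1 at 51.76 FPKM, next to 20.69 FPKM in the nearest ICI tumour.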

How the results depend on the processing

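Of 13439 genes, 2373 were called (62.6% higher in RI), against 241 with no filter, 280 as TPM, 4319 with array weights and 336 to 2693 when 1 tumour was left out (leaving out ICI 4 gave 336, RI 2 672, RI 1 999 and RI 5 1017), and 3103 without both ICI 1 and RI 4. TPM moved the median of all genes to 0.108, and median centring made 48.0% of its 3123 calls higher in RI. Of the 42 genes, 8 rose, against 0 with no filter, 14 at a mean FPKM of at least 5, 2 as TPM (Kif20a and Prc1), 15 after rescaling without mitochondrial and unannotated genes, 14 with voom and 0 to 10 when 1 tumour was left out (0 without ICI 4, 2 in the fits lacking RI 2 or RI 5, 3 lacking RI 1 and 4 lacking RI 4). Over all genes, 1997 were called at a mean FPKM of at least 5 (58.6% higher in RI) and 3369 after the rescaling (61%). Kif18a, at a mean of 2.05 FPKM, was not in the former fit. The share of all genes that rose was 11.1% in the main fit, 0.592% with no filter, 1.43% as TPM and 12.3% with voom. Of the 42 genes, 1 fell with length and GC trends removed (Mad2l1) and 1 with array weights (Ndc80, −0.52, limma adjusted p = 0.0190). Same-numbered tumours did not deviate together (correlations −0.092, −0.120 and −0.124), and differently numbered ones spanned −0.152 to 0.205. With only 3 such pairs, these correlations cannot exclude that the numbers pair the tumours. With a replicate block 22 genes were called, 0 of the 42 among them. With the block and length and GC removal these counts were 3 and 0. Both fits use 3 pairs of tumours. The 8 genes that follow changed sign under some settings. Mki67 was 0.0679 as TPM and 0.14 with the block (leave-one-out −0.17 to 0.0599). Cdk1 was −0.0128 with upper-quartile scaling, −0.0302 with median centring, −0.13 without length and GC trends, −0.12 with array weights, −0.061 with the block, −0.20 with block and trends removed and −0.0058 without ICI 1 and RI 4 (−0.13 to 0.14). Bub3 was −0.13 without the trends, −0.0114 with array weights and −0.22 with block and trends removed (−0.0152 to 0.21). Ube2c was 0.031 as TPM and 0.0027 without the trends (−0.24 to 0.0538). Spc24 was 0.0063 as TPM, 0.0348 without the trends and 0.11 with the block added. Kif23 was 0.0896 as TPM, 0.0097 rescaled and 0.04 without ICI 1 and RI 4 (−0.0644 to 0.0618). Cdkn1b was 0.0629 with array weights and 0.0765 with the block (−0.20 to 0.02). Cdkn2b was 0.0204 without the trends, 0.42 with array weights, 0.39 without ICI 1 and RI 4 and 0.10 with voom (−0.60 to 0.21). Apart from settings with fewer tumours, the cause was not tested. Over the named genes and all alternatives, 1516 values kept direction and side of the threshold, 285 no longer passed, 56 newly passed and 43 changed sign. With 4 tumours a group, the spread between tumours sets the limit, not depth.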

Other observations

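None of the 5 CDK inhibitors tested rose or fell, where 11.1% of all genes tested rose and 6.6% fell. The median of their log2 differences was −0.10. Cdkn1a (p21), a target of p53 that blocks cyclin-dependent kinases, averaged 19.2 ± 5.29 FPKM in RI and 15.1 ± 7.47 FPKM in ICI (limma adjusted p = 0.404). Cdkn1b (p27) averaged 20.4 ± 4.37 FPKM in RI and 21.6 ± 2.84 FPKM in ICI (0.722), and Cdkn2b (p15) 0.996 ± 0.628 FPKM in RI and 1.93 ± 2.34 FPKM in ICI (0.7499). Cdkn2c (p18) averaged 33.9 ± 4.72 FPKM in RI and 29.3 ± 9.06 FPKM in ICI (0.462). Cdkn2d (p19) had 17.5, 15.6, 12.2 and 17.6 FPKM in RI tumours, against 51.8, 17.7, 20.7 and 18.0 FPKM in ICI tumours (limma adjusted p = 0.204), with ICI 1 far above the others. Cdkn1c and Cdkn2a were under the expression filter. Cdkn1c (p57) had 0, 0.625, 0.121 and 0.759 FPKM in RI tumours, against 10.3, 0.474, 0.347 and 1.99 FPKM in ICI tumours (exact permutation p = 0.171). Cdkn2a averaged 0.268 ± 0.169 FPKM in RI and 0.551 ± 0.393 FPKM in ICI (exact permutation p = 0.314, 70 regroupings).

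Of 13 DREAM and MuvB subunits, the complexes that act through CHR elements, 1 rose and 1 fell, which is near those shares. Lin54, the subunit that contacts the CHR, rose by 0.56 on the log2 scale (limma adjusted p = 0.0322). Lin37, another MuvB core subunit, averaged 8.39 ± 1.31 FPKM in RI and 14.0 ± 3.38 FPKM in ICI, a log2 difference of −0.66 (limma adjusted p = 0.0361). The pocket protein Rbl1 (p107; log2 difference 0.43, limma adjusted p = 0.119) and Mybl2 (B-Myb; 0.39, 0.146) did not pass the test.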
